A study of Homo sapiens with 12 samples.

Results

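The proteins of the minor spliceosome that accompany U11 and U12 RNA were followed through 12 arrays of 2 human liver cancer cell lines. The set of 9 genes was SNRNP25, SNRNP35, SNRNP48, PDCD7, ZMAT5, ZCRB1, RNPC3, ZRSR2 and SCNM1, chosen by name for what their proteins do. Of these, 7 had an array row that carries their symbol alone, among 66212 tested rows of which 22465 were named. The rows that carry RNPC3 and SCNM1 also carry other symbols, so these members have no value here. Hepatocellular carcinoma gave rise to both lines, Hep3B and Huh7, whose cells received an siRNA or, as controls, a negative control RNA, and total RNA was taken 48 h later. This gave 4 groups of 3 arrays, namely Hep3B control, Hep3B siRNA, Huh7 control and Huh7 siRNA. The series title is about 1 long non-coding RNA, which was not analysed here, and the labels speak of an siRNA without its sequence or its target. Since the controls received another RNA, each comparison sets transfected cells against transfected cells. Separate cultures behind the 3 arrays are not stated, and p-values therefore speak only of array-to-array spread, which may be technical.

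A small class of human introns, called U12-type, is removed by a spliceosome of its own. In it U11 and U12 RNA take the places of U1 and U2, and U4atac and U6atac those of U4 and U6, while U5 serves both machines. The U11 and U12 particles enter as one unit whose specific proteins include those of SNRNP25, SNRNP35, SNRNP48, PDCD7, ZMAT5, ZCRB1 and RNPC3. ZRSR2 protein recognises the 3′ splice site of these introns, and SCNM1 protein joins the spliceosome when it has been activated. RNA from SNRNP48 and RNPC3 is itself known to be spliced under control of U11 particles, as a feedback on their level.

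The question asked was whether these protein genes change with the siRNA in either line. In Hep3B cells PDCD7 RNA rose 1.40-fold and no other measured member passed the test. In Huh7 cells ZRSR2 RNA rose 1.57-fold and again no other member passed. ZCRB1 had lower values on every siRNA array than on every control array of its line, in both lines, without passing the test in either. How many of all rows separate in this way was not counted. The RNA partners moved far more, with U11, U12 and U4atac RNA rows higher in both lines.

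The 250 bases before the annotated start of PDCD7, ZCRB1 and ZRSR2 are shown because these are the members whose levels moved or differed most. They come from the RefSeq table on GRCh38.p14, in which 8 of the 9 members were matched by symbol. Capitals mark CTTCCG (the core bound by ETS factors), TGACGT (part of the CRE, bound by CREB factors) and GGGCGG (the GC box), on either strand. PDCD7 is shown from chr15:65133809-65134058 on the minus strand, ZCRB1 from chr12:42326095-42326344 on the minus strand and ZRSR2 from chrX:15790234-15790483 on the plus strand.
PDCD7: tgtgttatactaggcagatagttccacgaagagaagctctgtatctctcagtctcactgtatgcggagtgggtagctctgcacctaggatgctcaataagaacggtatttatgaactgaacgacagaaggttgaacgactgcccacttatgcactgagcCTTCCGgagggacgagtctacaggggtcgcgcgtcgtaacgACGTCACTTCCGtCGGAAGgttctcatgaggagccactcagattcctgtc
ZCRB1: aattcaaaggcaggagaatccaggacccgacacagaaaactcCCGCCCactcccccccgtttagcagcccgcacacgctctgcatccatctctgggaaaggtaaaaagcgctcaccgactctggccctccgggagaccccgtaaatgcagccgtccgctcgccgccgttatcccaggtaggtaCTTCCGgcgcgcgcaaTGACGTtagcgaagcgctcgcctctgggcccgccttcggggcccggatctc
ZRSR2: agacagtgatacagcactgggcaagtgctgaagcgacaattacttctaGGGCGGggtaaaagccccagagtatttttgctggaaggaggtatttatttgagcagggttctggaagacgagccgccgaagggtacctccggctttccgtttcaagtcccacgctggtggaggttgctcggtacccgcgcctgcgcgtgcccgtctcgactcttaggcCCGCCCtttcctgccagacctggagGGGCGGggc
The PDCD7 stretch had 3 matches to CTTCCG and 1 to TGACGT, which ends next to a CTTCCG match, and no matches overlapped. ZCRB1 had 1 match to each of the 3 motifs. In ZRSR2 there were 3 matches to GGGCGG and none to CTTCCG or TGACGT. Among 35116 promoters of the same length, 16.5% held CTTCCG, 7.1% held TGACGT and 42.6% held GGGCGG. Over the 8 matched members, CTTCCG was found in 3, TGACGT in 2 and GGGCGG in 6. Searches for CACGTG (the E-box) and CCAAT, on both strands, matched 1 and 3 of the 8 members, against 6.34% and 32% of all promoters. These matches are descriptions of letters and the data hold no measure of binding.

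The deposited log2 values had array medians from 3.82 to 3.94, and the brightest of 23 background rows averaged 5.49 after quantile normalization. A row brighter than that is called above background, which held for 7898 named rows. Across rows, r was 0.991 to 0.994 within groups and 0.947 to 0.961 between the lines. For Huh7 control replicate 1 the labels conflict, since 1 of them says Hep3B, and its r was 0.985 to 0.993 with the other Huh7 arrays and 0.954 to 0.960 with those of Hep3B. The hepatocyte markers ALB, AFP, TTR, APOB and SERPINA1 were above background in all 4 groups, while APOA1 was above it in Hep3B controls only. All 6 measured hepatocyte markers had changes below 0 with the siRNA in both lines. Of these, 3 were called lower in Hep3B and 4 in Huh7, beside 18% and 17.2% of the named rows above background. Of 5 fibroblast markers, LUM alone was above background, and in Huh7 only. Of 7 blood and endothelial markers, CD68 was the one above background, and it was called higher with the siRNA in both lines. Whether these markers bear on the members was not tested.

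Levels are log2 array levels of 1 row each and were not compared between genes. Where groups are said not to overlap, the share of all rows that do so was not counted, so non-overlap alone sets no gene apart. Each log2 change is followed by its standard error from the fit across all rows (SE, n = 3 arrays per group), intervals are 95%, and "called" means an adjusted p under 0.05 with limma over all 66212 rows. Of the 7 measured members, PDCD7, SNRNP48, ZCRB1 and ZRSR2 lay above background as means over 12 arrays, ZRSR2 only through its Huh7 arrays. SNRNP25, SNRNP35 and ZMAT5 lay at or below it in every group mean, and their values bound what could be seen rather than measure a level. The plot of the members by array shows each value beside the background line.

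**Figure D1:**
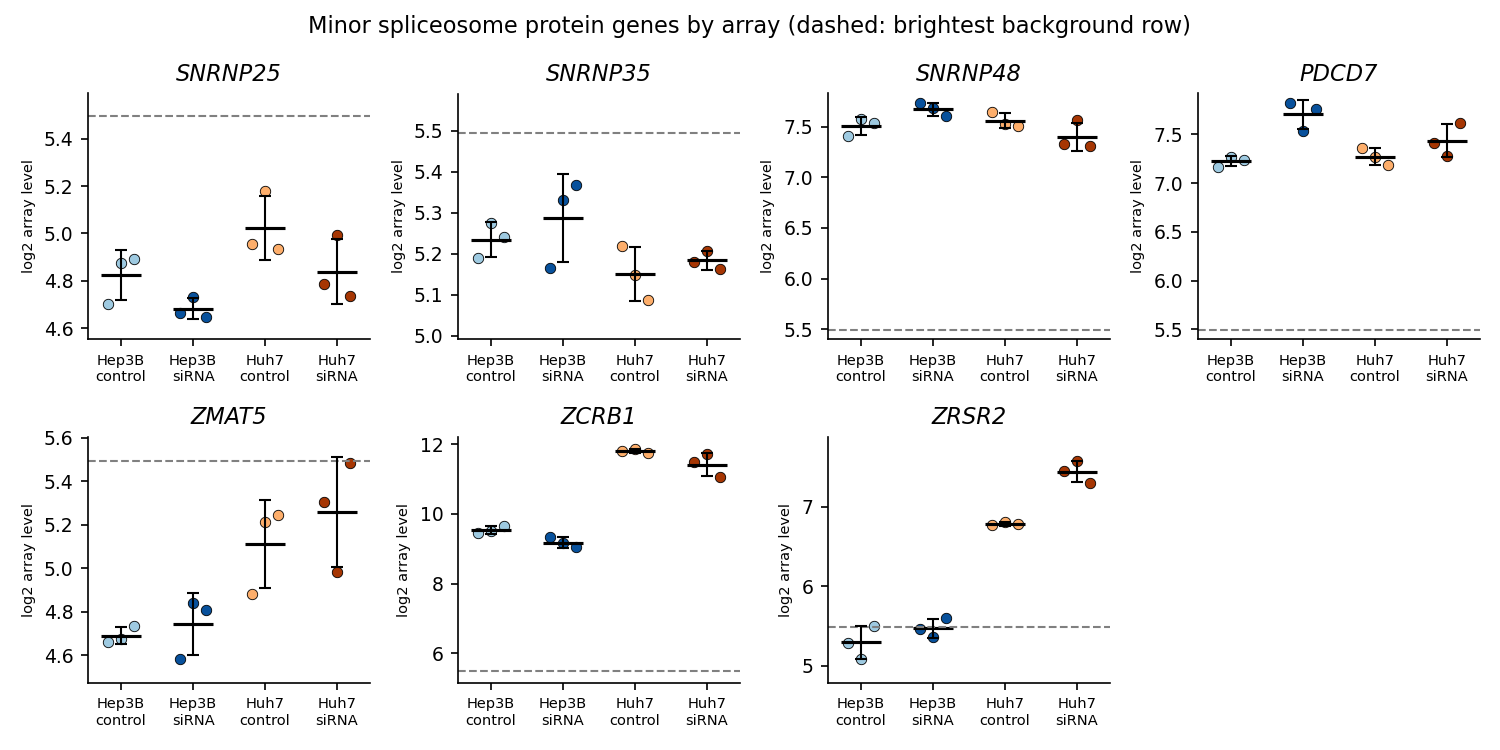
Log2 array level of the 7 measured members (vertical axis) on the 12 arrays by group (horizontal axis), with 1 point per array, the mean as a bar and the SD as whiskers (n = 3), and the mean brightest background row dashed. PDCD7 in Hep3B and ZRSR2 in Huh7 show siRNA points clear above the control points, and ZCRB1 is more than 2 log2 units higher in Huh7 than in Hep3B controls.

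PDCD7 encodes the 59K protein of the U11 particle, which binds the 65K protein encoded by RNPC3. Its row read 7.17, 7.27 and 7.23 on the Hep3B control arrays and 7.82, 7.54 and 7.76 on the Hep3B siRNA arrays. All 3 siRNA values were above all 3 control values, so these groups did not overlap. The log2 change was 0.48 ± 0.10, with an interval from 0.26 to 0.71 and an adjusted p of 0.0101 with limma. Of the named rows above background, 24.8% moved at least as far in either direction. Since the RNA is from whole cultures, a change in the share of cells that make it and a change per cell cannot be told apart. In Huh7 the control arrays gave 7.36, 7.27 and 7.19 and the siRNA arrays 7.41, 7.28 and 7.61, so the groups overlapped. The Huh7 change was 0.16 ± 0.10, from -0.06 to 0.39 (adjusted p = 0.449, limma). This interval reaches changes near those of Hep3B. The effects differed between the lines by -0.32 ± 0.14 (Huh7 minus Hep3B) with an unadjusted p of 0.0477 and an adjusted p of 0.391, so a difference was not shown. The control level itself, 7.22 ± 0.0515 (SD, n = 3) in Hep3B and 7.27 ± 0.0856 in Huh7, differed between lines by 0.05, with an interval from -0.17 to 0.27.

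SNRNP48 encodes the 48K protein of U11, which helps to recognise the 5′ splice site. In Hep3B its row read 7.41, 7.58 and 7.54 in the controls and 7.73, 7.68 and 7.61 with siRNA. The siRNA values were just above the control values and the change of 0.17 ± 0.09 was not called (interval from -0.03 to 0.36, adjusted p = 0.329, limma). In Huh7 the values were 7.64, 7.53 and 7.51 in the controls and 7.33, 7.56 and 7.31 with siRNA. There the groups overlapped, with a change of -0.16 ± 0.09 from -0.35 to 0.03 (adjusted p = 0.363, limma). The 2 effects had opposite signs, and their difference of -0.33 ± 0.12 had an unadjusted p of 0.0226 and an adjusted p of 0.277. Control levels of 7.51 ± 0.0897 in Hep3B and 7.56 ± 0.0706 in Huh7 (SD, n = 3) differed by 0.05, from -0.14 to 0.24.

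SNRNP35 encodes the 35K protein of U11, which resembles the 70K protein of U1. Its values lay between 5.09 and 5.37 on all 12 arrays, below the mean background line of 5.49. The siRNA changes were 0.05 ± 0.07 in Hep3B and 0.03 ± 0.07 in Huh7, and no pair of groups separated. SNRNP25, which encodes the 25K protein of U11, lay between 4.65 and 5.18, with changes of -0.14 ± 0.09 in Hep3B and -0.18 ± 0.09 in Huh7, neither called. ZMAT5, which encodes the 20K protein, lay between 4.58 and 5.48, with changes of 0.05 ± 0.13 and 0.15 ± 0.13. Values this dim only bound the RNA level of these 3 members.

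ZCRB1 encodes the 31K protein, which carries an RNA recognition motif and a zinc knuckle. Its row read 9.44, 9.52 and 9.66 on the Hep3B control arrays and 9.33, 9.15 and 9.04 on the Hep3B siRNA arrays. The Huh7 control arrays gave 11.80, 11.86 and 11.74 and the Huh7 siRNA arrays 11.49, 11.70 and 11.05. In each line every siRNA array was below every control array, and the Huh7 siRNA arrays spread widest (SD 0.334). The changes were -0.37 ± 0.15 in Hep3B, from -0.69 to -0.05, and -0.39 ± 0.15 in Huh7, from -0.71 to -0.06. Neither was called, with unadjusted p of 0.0289 and 0.0231 and adjusted p of 0.169 and 0.162 (limma). The calls changed with single arrays, since without Huh7 siRNA replicate 3 the Hep3B change had an adjusted p of 0.0354, and without Huh7 siRNA replicate 2 the Huh7 change had one of 0.0450. The effects differed by -0.02 ± 0.21, and the interval from -0.47 to 0.44 leaves room for a difference as large as either effect. Every siRNA array was also below every control array of its line, in both lines, for CRIPT and SNRNP27. These spliceosome genes outside the members had uncalled changes of -0.40 and -0.43 and of -0.42 and -0.39.

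ZRSR2 encodes the protein that binds the 3′ splice site of U12-type introns, a relative of the U2AF1 protein of the major spliceosome, and is known for mutations in myelodysplastic syndromes. Its row read 6.77, 6.81 and 6.78 on the Huh7 control arrays and 7.44, 7.57 and 7.30 on the Huh7 siRNA arrays. The lowest siRNA value stood well above the highest control value. The rise was 0.65 ± 0.11, from 0.41 to 0.90 (adjusted p = 0.00368, limma), and 11.2% of the named rows above background moved at least as far in either direction. In Hep3B the controls read 5.29, 5.09 and 5.50 and the siRNA arrays 5.46, 5.36 and 5.60. These values overlapped each other and lay about at background, with a change of 0.18 ± 0.11 from -0.07 to 0.42 (adjusted p = 0.438, limma). The effects differed by 0.48 ± 0.16 with an unadjusted p of 0.0114 and an adjusted p of 0.198, so no difference between the lines was called, and the dim Hep3B signal limits what could be seen there. U2AF1 had changes of 0.30 in Hep3B and 0.19 in Huh7, neither called (adjusted p = 0.0936 and 0.354, limma).

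Read as a set, 1 of the 7 measured members was called in Hep3B, where 10.3% of all tested rows and 39.2% of the named rows above background were called. For Huh7 it was also 1 of 7, against 8.05% of all tested rows and 32.6% of the named rows above background. Both called members were among the 4 above background, so 1 of 4 stands beside 39.2% and 32.6%, and neither share sets the members apart from other genes. ZRSR2 counts among these 4 through its Huh7 arrays, here and in the difference below, since it lay about at background in Hep3B. The median change of the 7 members was 0.05 in Hep3B and 0.03 in Huh7, beside 0.00189 and -0.04 over the named rows above background. Of the 7 members, 5 had a change above 0 in Hep3B and 4 in Huh7. The difference between the effects was called in 0 of 7 members by limma, where 1.87% of all tested rows and 6.82% of the named rows above background were called. At an unadjusted p under 0.05 it was 3 of 7, all of them among the 4 above background, beside 12.5% of all tested rows and 31.1% of the named rows above background. The plot of the siRNA effects sets both lines side by side.

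**Figure D2:**
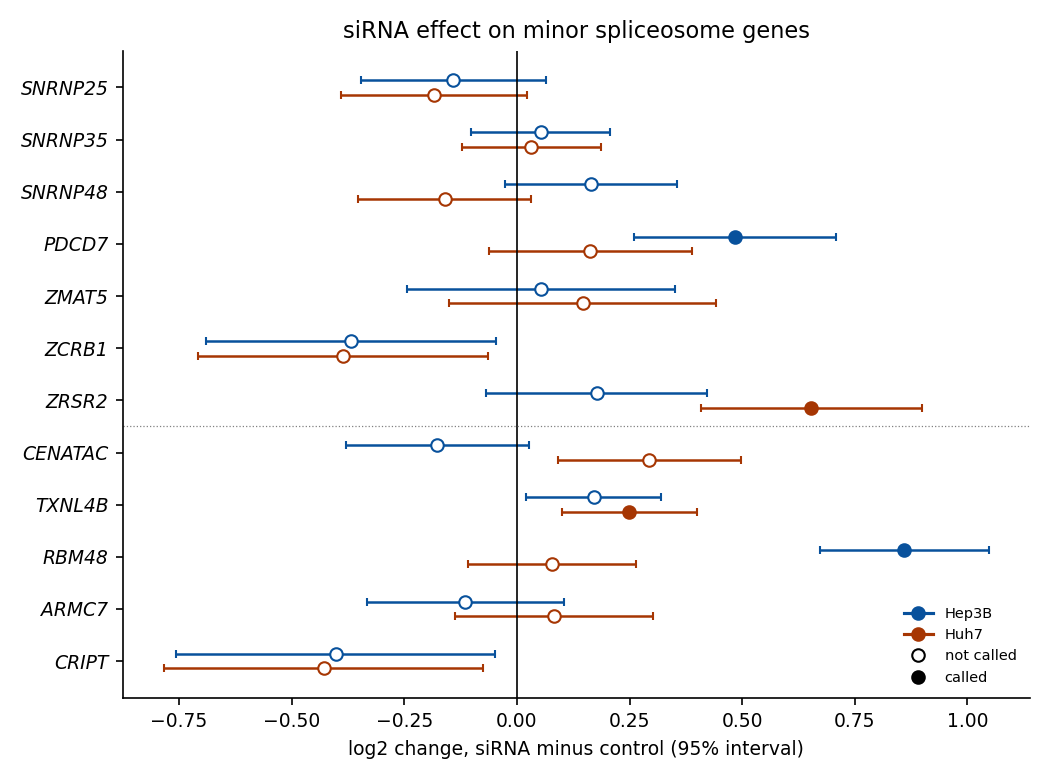
Log2 change, siRNA minus control (horizontal axis, points with 95% intervals), for the 7 measured members above the dotted line and 5 other minor spliceosome genes below it, with Hep3B in blue and Huh7 in brown and filled points for calls. Among the members PDCD7 in Hep3B and ZRSR2 in Huh7 are filled, and ZCRB1 has nearly the same open value of -0.37 and -0.39 in both lines.

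The mean of both effects was tested as well, a choice made after the values of ZCRB1 were seen. It was called for 3 of 7 members, where 14.4% of all tested rows and 50.8% of the named rows above background were called. PDCD7 had a mean effect of 0.32 ± 0.07 (adjusted p = 0.0104, limma) and ZRSR2 one of 0.42 ± 0.08 (adjusted p = 0.00389, limma). Both genes were called in 1 line only, PDCD7 in Hep3B and ZRSR2 in Huh7, and ZRSR2 lay about at background in Hep3B. ZCRB1 had one of -0.38 ± 0.10, from -0.60 to -0.15 (adjusted p = 0.0315, limma). The ZCRB1 call was lost without any 1 of 7 arrays, namely Hep3B control replicates 2 and 3, Hep3B siRNA replicates 2 and 3 and Huh7 control replicates 1, 2 and 3, with adjusted p from 0.0501 to 0.0776. For SNRNP48, whose effects had opposite signs, the mean was 0.00244 (adjusted p = 0.988, limma).

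Between the control arrays of the lines, ZCRB1 and ZRSR2 differed more than with the siRNA, while the differences of PDCD7 and SNRNP48 given above were both 0.05 and not called. ZCRB1 was higher in Huh7 than in Hep3B by 2.26 ± 0.15 on the log2 scale, from 1.94 to 2.58, which is 4.78-fold (adjusted p = 4.58e-07, limma). Group means were 9.54 ± 0.110 and 11.80 ± 0.0619 (SD, n = 3), and 4.39% of the named rows above background differed at least as much. ZRSR2 was higher in Huh7 (adjusted p = 1.41e-06, limma), with group means of 5.29 ± 0.207 in Hep3B and 6.79 ± 0.0239 in Huh7 (SD, n = 3). Since 2 of the 3 Hep3B control arrays were not above their brightest background row, the size is given as a bound, at least 2.46-fold. ZMAT5 had a difference of 0.42 ± 0.13 (adjusted p = 0.0471, limma), but both lines were below background and no fold is given. That call was lost without any 1 of 8 arrays, namely the 3 Hep3B controls, Hep3B siRNA replicates 2 and 3, Huh7 control replicates 2 and 3 and Huh7 siRNA replicate 1, with adjusted p from 0.0587 to 0.156. SNRNP25 differed by 0.20 (interval from -0.01 to 0.41) and SNRNP35 by -0.08, neither called. Between the lines 3 of 7 members were called, where 20.9% of all tested rows and 64.8% of the named rows above background were, so a difference between the lines was common among bright rows.

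The RNA that these proteins bind is described here only for the comparison. RNU11, the row of U11 RNA, read 9.21, 8.59 and 9.24 in Hep3B controls and 12.17, 12.72 and 12.85 with siRNA, and in Huh7 8.0, 9.03 and 9.23 against 11.22, 10.57 and 11.36, rises of 3.57 ± 0.33 and 2.29 ± 0.33 (adjusted p = 5.18e-05 and 0.00143, limma). RNU12, the row of U12 RNA, was below background in both control groups. It was at least about 11-fold higher with siRNA in Hep3B (adjusted p = 2.73e-07, limma). In Huh7 it was also called higher (adjusted p = 6.11e-05, limma). There siRNA replicate 2 read 5.47, below its own brightest background row at 5.87, so no fold is given. The Hep3B bound sets the mean of the siRNA arrays against the brightest background row of each control array. RNU4ATAC rose by 3.34 ± 0.42 in Hep3B and by 2.01 ± 0.42 in Huh7 (adjusted p = 0.000426 and 0.0134, limma), and in Huh7 single arrays weighed on its value. Its Huh7 change was 1.77 with an adjusted p of 0.0563 without Huh7 siRNA replicate 1, and 1.40 with an adjusted p of 0.00913 (limma) without Huh7 control replicate 1, the array with the conflicting labels. RNU6ATAC lay below background in every group and was not called in either line. On the log2 scale the U11 rise in Hep3B was thus several times the largest change of any measured protein member. Protein members and RNA rows are different probes, so this sets changes side by side and no levels.

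**Figure D3:**
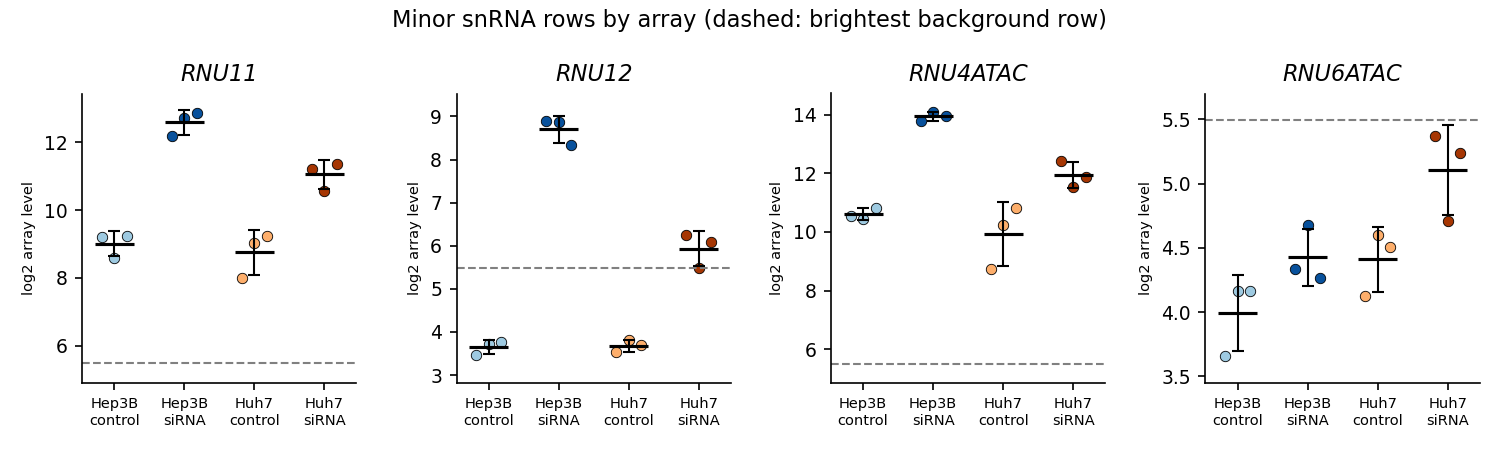
Log2 array level (vertical axis) of the rows of U11, U12, U4atac and U6atac RNA on the 12 arrays by group (horizontal axis), with 1 point per array, the mean as a bar, the SD as whiskers (n = 3) and the mean brightest background row dashed. The siRNA points of RNU11, RNU12 and RNU4ATAC stand above the control points in both lines, and RNU6ATAC stays below the background line.

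Beyond the U11 and U12 proteins, 5 genes whose proteins act in later steps of the minor spliceosome were followed. RBM48, whose protein binds the cap of U6atac RNA together with that of ARMC7, rose in Hep3B by 0.86 ± 0.08, from 6.85 to 7.71 in group means (adjusted p = 7.64e-05, limma). In Huh7 its change was 0.08 (adjusted p = 0.712, limma), and the difference between the lines of -0.78 ± 0.12 was called (adjusted p = 0.00917, limma). TXNL4B was the 1 gene called in Huh7, by 0.25 ± 0.07 (adjusted p = 0.0480, limma), and that call was lost without any 1 of the 12 arrays (adjusted p from 0.0503 to 0.150). CRIPT had changes of -0.40 and -0.43, CENATAC of -0.18 and 0.29 and ARMC7 of -0.11 and 0.08 in Hep3B and Huh7, none called in either line. The count was 1 of 5 in each line, beside 10.3% and 8.05% of all tested rows and 39.2% and 32.6% of named rows above background. Of the 5, 4 lay above background, with both called genes among them. The count called higher was 2 in each line among rows above background only. In Huh7 it was also 2 with deposited values, median centring or cyclic loess, and 0 in a fit to the Huh7 arrays alone. By the late-chosen mean of both effects, CRIPT was called lower (-0.42), as ZCRB1 was, TXNL4B and RBM48 were called higher and 2 were not called. That test called 14.4% of all tested rows and 50.8% of the named rows above background.

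Proteins shared with the major spliceosome gave a second frame, beside named rows above background of which 21.1% were called higher and 18% lower in Hep3B, and 15.4% and 17.2% in Huh7. Of 6 measured SF3B genes, whose products sit on the branch site in both machines, SF3B2 and PHF5A were called higher in Hep3B (1.11 ± 0.12 and 0.92 ± 0.07) and in Huh7 (0.56 and 0.51), and SF3B1 was called lower in Huh7 (-0.33). The Huh7 call of SF3B2 was lost without Huh7 control replicate 1 or 2 (adjusted p = 0.0531 and 0.0626, limma) and that of SF3B1 without Huh7 control replicate 1 or Huh7 siRNA replicate 1 (0.0594 and 0.0555). Of 7 Sm genes, whose ring sits on U11, U12 and U4atac RNA as on U1, U2, U4 and U5, limma called 0 in Hep3B and 2 lower in Huh7, SNRPE by -0.53 and SNRPF by -0.41. SNRPF was lost without any 1 of 8 arrays, namely the 3 Hep3B controls, Huh7 control replicates 2 and 3 and the 3 Huh7 siRNA arrays (adjusted p from 0.0514 to 0.127). The medians were 0.15 and -0.08 for the SF3B genes and -0.08 and -0.27 for the Sm genes, in Hep3B and Huh7.

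Among 15 tri-snRNP genes, most of which serve both machines, 3 were called higher in Hep3B (PRPF3 0.51, SART1 0.65 and USP39 0.25) and 1 in Huh7 (PRPF3 0.37) and 0 lower by limma in either line. Of the 15, 13 lay above background as means over 12 arrays, and SART1 was not among them. Its Hep3B means were 5.08 in controls and 5.72 with siRNA, so the size of its rise is uncertain. Among rows above background only, 3 were called lower and 2 higher in Huh7, and 1 was called lower in Hep3B with that filter, with array weights, in a fit to the Hep3B arrays alone or without Huh7 siRNA replicate 3. The USP39 call was lost without any 1 of 10 arrays, all but Huh7 siRNA replicates 2 and 3 (adjusted p from 0.0525 to 0.162), and without Huh7 siRNA replicate 3 the count of higher calls in Hep3B was 5. A further 10 genes encode proteins of U1 and U2, the particles that U11 and U12 replace, or of the factor U2AF (U2AF1 and U2AF2). Of these, 3 were called higher in Hep3B (SNRPA1 0.57, SF3A2 0.60 and SF3A3 0.65). In Huh7 SNRPA1 was called higher (0.57) and SNRPA lower (-0.39). SF3A2 was lost without any 1 of Hep3B control replicates 1 and 2 and Hep3B siRNA replicates 2 and 3 (adjusted p from 0.0611 to 0.0775), and SNRPA without any 1 of the 6 Huh7 arrays (adjusted p from 0.0584 to 0.0993).

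Genes that contain U12-type introns are the substrates of this machine, and 11 of 15 listed ones were measured, 6 of them above background. In Hep3B 3 were called lower, MAPK8 by -0.59, MAPK9 by -0.41 and DIAPH3 by -0.75, and 0 higher by limma. Of the named rows above background, 18% were called lower in Hep3B and 21.1% higher. Over the alternative settings these Hep3B counts ran from 3 to 4 lower and from 0 to 2 higher. In Huh7 MAPK8 (-0.80) and MAPK9 (-0.30) were called lower and DIAPH3 (0.36) and STK11 (0.35) higher. Of the named rows above background, 17.2% were called lower in Huh7 and 15.4% higher. STK11 was not among the 6 above background. Its Huh7 means were 5.22 in controls and 5.57 with siRNA, so the size of its rise is uncertain. MAPK8 and MAPK9 encode the stress kinases JNK1 and JNK2, DIAPH3 a formin that builds actin filaments, and STK11 the kinase LKB1. DIAPH3 moved in opposite directions, with a difference between the lines of 1.11 ± 0.11 (adjusted p = 0.00106, limma). The Huh7 calls of MAPK9, DIAPH3 and STK11 were each lost without at least 1 array: MAPK9 without Huh7 control replicate 1 or 3 or siRNA replicate 1, DIAPH3 without control replicate 2 or 3 or siRNA replicate 2, and STK11 without any Huh7 array but siRNA replicate 2, with highest adjusted p of 0.0922, 0.0599 and 0.0844. In a fit to the 6 Huh7 arrays alone the Huh7 calls of RNU4ATAC, TXNL4B, SF3B1, SF3B2, SNRPF, PRPF3, SNRPA, MAPK9, DIAPH3 and STK11 were all lost, with adjusted p from 0.0565 (SNRPA) to 0.195 (TXNL4B). With median centring those of SF3B1, SNRPF, SNRPA and MAPK9 were lost (adjusted p = 0.0716, 0.156, 0.269 and 0.177, limma). With deposited values those of SNRPF, SNRPA and MAPK9 were lost (adjusted p = 0.0893, 0.147 and 0.0886, limma). Cyclic loess lost SNRPF and SNRPA (adjusted p = 0.0595 and 0.0532, limma), and array weights lost SNRPF (adjusted p = 0.0742, limma). The median change of the 11 genes was -0.06 in both lines, and rows measure total transcript with no view of whether an intron was kept.

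**Figure D4:**
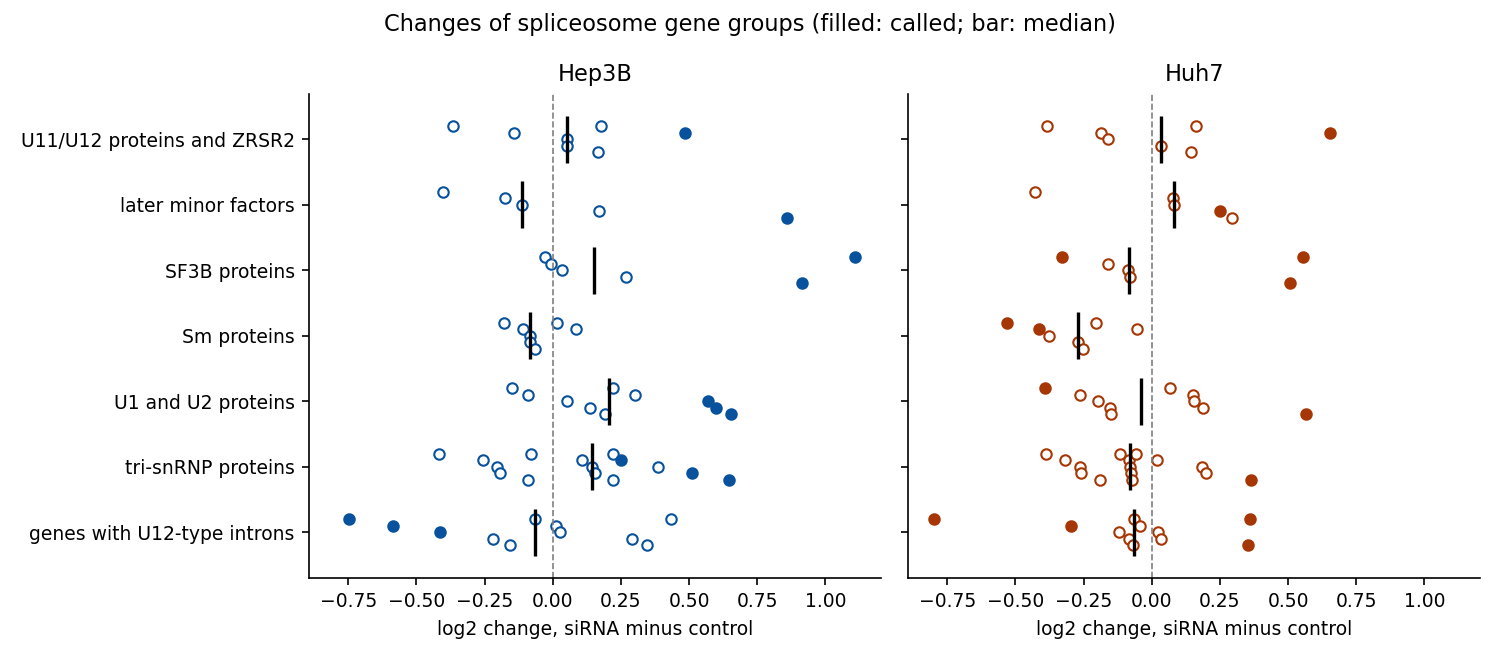
Log2 change, siRNA minus control (horizontal axis), of each gene in 7 spliceosome-related groups (vertical axis), Hep3B left and Huh7 right, with 1 point per gene, filled where called, and the group median as a bar. The medians lie between -0.27 and 0.21, and the U11/U12 proteins with ZRSR2 have medians of 0.05 and 0.03.

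For the 2 members called in a line, the named rows above background with the most alike pattern over the 12 arrays were EIF3D (Pearson r = 0.937) and PPP1R14B (0.918) for PDCD7, and USP54 and NEB (both 0.992) for ZRSR2. EIF3D encodes a subunit of a translation initiation factor and NEB the giant actin-binding protein nebulin. The arrays share 2 lines and 2 treatments, so these values only describe the 12 arrays, and ZRSR2 itself differed more between the control lines (at least 1.30 on the log2 scale) than with the siRNA in Huh7 (0.65).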

How the data were processed

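The deposited table holds log2 values, 1 column per array, and per the submitters' processing notes the authors used Agilent Feature Extraction 10.7.1.1, while the labels give a standard Affymetrix labelling protocol with Cy3 and the row names are Affymetrix transcript clusters. Probe summary, normalization by the authors and genome build are not given in the sources used here, so rows carry no coordinates. Of 70523 rows, 67528 transcript cluster rows were kept. The platform annotation gave 1 symbol to 23781 probes and several to 1543 of 25324, and the brightest probe of a symbol was used. Because array medians differed by 0.124, above a limit of 0.1, arrays were quantile normalized.

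A single linear model over all 12 arrays and 66212 rows held the 4 group means (limma 3.58.1 in R 4.3.3, empirical Bayes with a trend, 8 residual degrees of freedom), with two-sided p-values adjusted by Benjamini-Hochberg over all rows and a threshold of 0.05. The procedure was tested on simulated data. Figures used Python 3.11.15 with matplotlib 3.10.9.

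Members and gene lists were chosen with earlier results of these data known. Named were all members, up to 3 called genes of each other list per siRNA comparison, the 4 minor snRNAs, U2AF1 and the 2 rows most like each called member. Genes named without a call in the later minor factors, and the markers, complete their lists. ZRSR2P1, a relative of ZRSR2, and SF3B6 have no row used here. Alternatives were other normalizations, row filters, probe rules, array weights, no trend, a replicate block, fewer arrays in the fit and leaving out each array.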

Additional observations from a re-analysis of the deposited data

Results flagged for a closer look

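For 3 named genes that are not members of the protein set, a test of the difference between the lines' siRNA effects passed the threshold (Huh7 minus Hep3B, limma, adjusted over all rows). RNU12 had a fitted difference of -2.80 (adjusted p = 0.00108), but both control groups and 1 Huh7 siRNA array were below background. The Hep3B effect is thus only a lower bound and the Huh7 effect has no firm size. Neither the size of this difference nor the difference itself can be read from the fit. RBM48 differed by -0.78 (adjusted p = 0.00917), with a call in Hep3B alone. DIAPH3 differed by 1.11 (adjusted p = 0.00106), with a call for lower values in Hep3B and for higher values in Huh7. Of the 7 measured members 0 passed this test with limma, and 3 had an unadjusted p under 0.05, beside 12.5% of all tested rows and 31.1% of the named rows above background.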

How the results depend on the processing

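Over 741 recomputed member changes, 696 kept direction and side of the threshold, 21 lost a call, 2 gained one and 22 changed sign, none of these called. PDCD7 in Hep3B ran from 0.43 to 0.57 and was called in 21 of 22 alternatives (adjusted p from 0.00258 to 0.0507), and ZRSR2 in Huh7 from 0.59 to 0.75 and in 22 of 22. With the replicate block the count of called members in Hep3B was 0, since PDCD7 had an adjusted p of 0.0507. Same-numbered control and siRNA arrays deviated together at r of 0.117, 0.0911 and -0.0263 in Hep3B and -0.233, -0.0258 and 0.250 in Huh7. Not every array correlated best with its own number. With 3 arrays per group these values cannot settle whether the numbers pair arrays. Without 1 array the counts ran from 1 to 2 in Hep3B, 1 to 2 in Huh7, 2 to 3 between the control lines and 2 to 3 for the mean effect. Between the control lines the count was 2 with deposited values, median centring, cyclic loess or the replicate block, each without ZMAT5 (adjusted p = 0.0916, 0.0721, 0.0508 and 0.0687), and the mean effect had 2 with median centring, without ZCRB1 (0.0810).

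Sign changes were all of small values. The SNRNP35 difference between effects was 0.013 with deposited values and 0.0047 with median centring, and with array weights that of ZCRB1 was 0.034 and the mean effect on SNRNP48 was -0.0092. Without 1 array the differences ran from -0.12 to 0.035 for SNRNP25, -0.082 to 0.020 for SNRNP35, -0.16 to 0.16 for ZCRB1 and -0.024 to 0.23 for ZMAT5, and the mean effect on SNRNP48 from -0.038 to 0.026. Of 740 recomputed changes of other genes, all called in the main fit, 654 were as before, 86 lost a call and 0 changed sign. Uncalled changes were not included, so no gain could appear. With the replicate block the Huh7 calls of RNU4ATAC, TXNL4B, SF3B1, SNRPF, PRPF3, STK11, MAPK9 and DIAPH3 were lost. Their adjusted p ran from 0.0546 to 0.116 (limma). The Hep3B call of USP39 was also lost with the block (adjusted p = 0.0918, limma).

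Over all rows, calls in Huh7 went from 5327 to 2725 with only the arrays compared, and calls of the difference from 1240 to 721 with median centring, 312 with the replicate block, 2070 among bright rows only and 616 to 1335 without 1 array. Median centring raised the share of higher calls from 54.7% to 65.9% in Hep3B and from 56.7% to 70.1% in Huh7. The causes were not tested. Only the arrays compared was not run for the difference and the mean effect, which use all arrays. Signal over background limits SNRNP25, SNRNP35, ZMAT5 and ZRSR2 in Hep3B, and among called genes outside the members RNU12, SART1 and STK11. The 3 arrays per group limit the precision.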
